A study of Mus musculus with 26 samples.

Results

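Regions open in only nonpermissive cells are stretches of the mouse genome with an ATAC peak in both nonpermissive libraries and in none of the 4 permissive and control libraries. There were 2084 of them among 361941 regions made by merging the peaks of all 6 ATAC libraries wherever they overlapped by at least 1 bp on chromosomes 1 to 19 and X. They make up 0.576% of all regions and 4.0% of the 52059 regions with a peak in both nonpermissive libraries. The regions were chosen by the presence and absence of ATAC peaks, so their ATAC values below are descriptions, and tests were kept to the histone mark H3K27ac and to RNA.

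The cells came from cochleae taken at postnatal day 1 and kept in culture with DAPT, which inhibits gamma-secretase and so Notch signalling, or with DMSO, and they were sorted after trypsin dissociation. At 48 h, nonpermissive cells were DAPT-treated and carried the supporting cell marker alone (TdT switched on by Lfng-CreER, which the labels also spell Lfng-CreET). Permissive cells were DAPT-treated and carried that marker and Atoh1-GFP, a reporter of hair cell fate, and control cells were DMSO-treated with the marker alone. ATAC and H3K27ac CUT&RUN were each done on 2 samples per group, and RNA was sequenced at 48 h in 3 nonpermissive, 3 permissive and 2 control samples. RNA at 24 h came from another sort, of Lfng-GFP cells, with 3 DAPT and 3 DMSO samples. A sort by Lfng labels several supporting cell types at once. The labels do not say that replicates came from separate animals, so the p-values reflect sample-to-sample spread that could be purely technical.

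Supporting cells surround the hair cells of the organ of Corti, and Notch signalling from hair cells keeps them from becoming hair cells themselves. When Notch is blocked soon after birth, some supporting cells switch on Atoh1, the transcription factor that starts hair cell development, while others do not. ATAC finds open chromatin by where the Tn5 transposase can insert, and H3K27ac marks active promoters and enhancers, so regions open in a single cell state are a usual place to look for its regulatory elements.

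Of the 2084 regions, 45 reached into a promoter window, the RefSeq stretch of 300 bases from 250 before to 50 after a transcription start site (TSS) on GRCm38.p6, the assembly of build mm10. These 5 windows are shown because they carry the clearest examples of what follows, and were chosen after their values were seen. Capitals mark the bases that lie inside the nonpermissive-only region, and each sequence reads 5′ to 3′ on the strand of its gene. Gm13580 (chr2:60411275-60411574, plus strand) and Tmem229b (chr12:78983433-78983732, minus strand) are 2 of the 4 windows whose region had an H3K27ac peak in both nonpermissive libraries and in no other library, with 236 and 25 bases inside the region. Sphk1 (chr11:116530850-116531149, plus strand) and Btbd19 (chr4:117125609-117125908, minus strand) lie almost whole within a region. The Sphk1 region had an H3K27ac peak in nonpermissive replicate 1 and both control libraries, and the Btbd19 region in control replicate 2 alone. Rd3 (chr1:191977120-191977419, plus strand) had fold enrichments of 3.23 and 4.58 in nonpermissive replicates 1 and 2 and no H3K27ac peak.
Gm13580: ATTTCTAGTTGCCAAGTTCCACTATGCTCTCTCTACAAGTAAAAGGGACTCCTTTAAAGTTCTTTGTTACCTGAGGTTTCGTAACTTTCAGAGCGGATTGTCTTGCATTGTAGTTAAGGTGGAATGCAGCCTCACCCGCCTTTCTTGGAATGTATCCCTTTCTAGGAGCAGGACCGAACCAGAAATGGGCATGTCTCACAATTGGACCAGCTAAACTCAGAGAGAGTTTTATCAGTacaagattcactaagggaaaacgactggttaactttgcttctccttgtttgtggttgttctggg
Tmem229b: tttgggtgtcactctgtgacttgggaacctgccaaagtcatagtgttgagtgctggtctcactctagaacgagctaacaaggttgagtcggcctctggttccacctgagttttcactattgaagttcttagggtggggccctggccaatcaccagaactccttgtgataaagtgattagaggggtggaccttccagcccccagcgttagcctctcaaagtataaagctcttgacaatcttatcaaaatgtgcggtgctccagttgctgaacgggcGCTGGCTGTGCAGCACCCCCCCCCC
Sphk1: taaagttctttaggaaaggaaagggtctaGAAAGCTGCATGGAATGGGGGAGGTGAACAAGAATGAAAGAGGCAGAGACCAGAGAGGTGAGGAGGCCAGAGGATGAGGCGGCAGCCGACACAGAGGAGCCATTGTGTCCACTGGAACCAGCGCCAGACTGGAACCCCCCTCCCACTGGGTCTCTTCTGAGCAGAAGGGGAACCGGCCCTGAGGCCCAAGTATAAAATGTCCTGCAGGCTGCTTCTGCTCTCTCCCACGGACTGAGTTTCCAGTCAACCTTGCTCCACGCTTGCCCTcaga
Btbd19: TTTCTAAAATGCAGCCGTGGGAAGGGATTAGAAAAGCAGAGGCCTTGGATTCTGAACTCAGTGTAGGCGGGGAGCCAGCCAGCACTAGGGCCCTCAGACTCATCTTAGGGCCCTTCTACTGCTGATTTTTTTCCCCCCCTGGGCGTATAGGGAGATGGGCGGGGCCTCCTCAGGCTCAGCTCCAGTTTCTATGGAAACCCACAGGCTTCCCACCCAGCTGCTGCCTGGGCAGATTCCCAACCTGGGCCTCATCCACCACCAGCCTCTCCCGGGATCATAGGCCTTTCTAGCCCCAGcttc
Rd3: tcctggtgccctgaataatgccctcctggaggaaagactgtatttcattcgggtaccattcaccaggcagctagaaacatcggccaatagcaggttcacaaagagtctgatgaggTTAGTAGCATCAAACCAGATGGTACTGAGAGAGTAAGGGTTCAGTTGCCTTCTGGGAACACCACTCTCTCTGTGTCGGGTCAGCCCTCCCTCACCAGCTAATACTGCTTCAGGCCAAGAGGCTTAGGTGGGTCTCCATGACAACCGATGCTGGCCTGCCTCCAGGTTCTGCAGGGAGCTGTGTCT

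The 45 regions overlapped 50 windows, and 11 short motifs were searched there on both strands. The letters GGAATG, a TEAD motif, were found in 26.0% of the 50 windows and in 14.6% of all 32583 windows. The RUNX letters TGTGGT were found in 28.0% and 16.6%, and the SP/KLF letters GGGCGG in 20.0% and 35.9%. The TEAD, RUNX and SP/KLF gaps were the widest of the 11, and SOX gave 14.0% and 12.2%. Within the capitals above, the Gm13580 and Sphk1 stretches both hold the TEAD and SOX (ACAATG) letters. Median GC content was 52.2% in the 50 windows and 53.0% in all. These are matches of letters in few windows and were not tested. Some windows overlap, such as those of Gm32067, whose shared RUNX match is counted more than once. The other regions' sequences were not analysed here.

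The ATAC signal of the nonpermissive-only regions was slightly below that of a typical peak in the same libraries and further below that of regions open everywhere. Fold enrichment, the authors' ratio of peak signal to local background, had a median of 2.42 (1.8 to 5.0) in replicate 1 and 3.14 (1.63 to 10.6) in replicate 2. Over all regions with a peak in the library the medians were 2.58 and 3.54, over regions open in all 4 DAPT-treated libraries and no control library 2.56 and 3.44, and over the 24804 regions open in all 6 libraries 4.63 and 7.68. The deposited lists keep peaks down to a −log10 p of 2.0 with no limit on q. The q-value was above 0.05 at 48.1% of the nonpermissive-only regions in replicate 1 and at 21.3% in replicate 2. Over all regions with a peak in the library these shares were 37.5% and 14.7%. Of the nonpermissive-only regions, 885 (42.5%) were under 0.05 in both. Only 37 (1.78%) reached a −log10 q of 5 in both libraries.

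**Figure D1:**
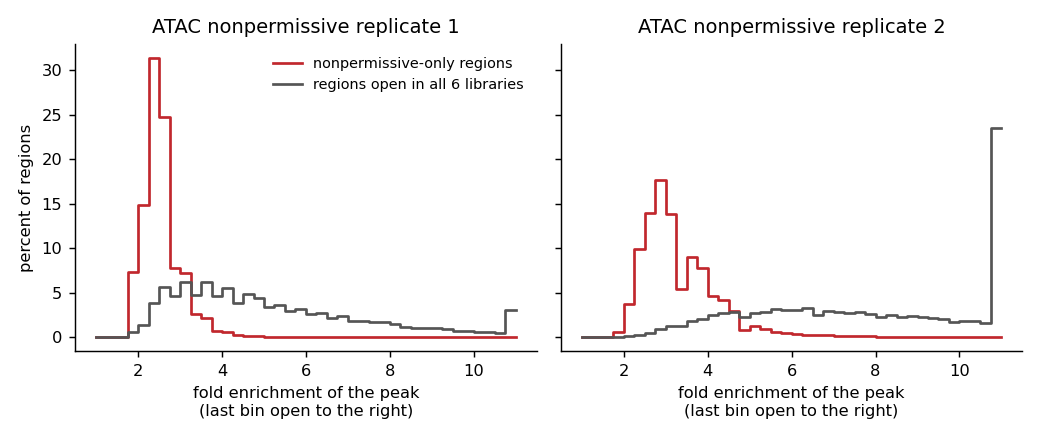
Fold enrichment of ATAC peaks (x axis) against the percent of regions per bin (y axis) in each nonpermissive replicate, for the 2084 nonpermissive-only regions (red) and the 24804 regions open in all 6 libraries (grey). The nonpermissive-only regions pile up around their medians of 2.42 and 3.14, while the regions open everywhere spread to much higher values.

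The replicates ranked the regions differently. Spearman's rho of fold enrichment between them was 0.188 over the 2084 regions, which share both libraries and their depth, and 1761 (84.5%) were higher in replicate 2. Far more regions had a peak in a single nonpermissive library and in no other list, 40201 in replicate 1 and 33640 in replicate 2. Permissive-only regions, chosen the same way, numbered 8704 or 18.3% of the 47645 regions with a peak in both permissive libraries. Control-only regions numbered 2676 or 4.98% of 53687.

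At the border of the definition, the weakest region inside it had fold enrichments of 2.19 and 1.63 in nonpermissive replicates 1 and 2. The weakest regions just outside had 1.84 and 1.9 there and 1.57 in permissive replicate 1, or 1.73 and 1.82 there and 1.79 in permissive replicate 2. Another 3963 regions had both nonpermissive peaks and a peak in exactly 1 other library, which was control replicate 1 for 2043 and permissive replicate 2 for 1355. These 2 libraries had the longest peak lists of the 4, 170910 peaks in permissive replicate 2 and 129676 in control replicate 1, against 86988 in permissive replicate 1 and 105346 in control replicate 2. Of the nonpermissive-only regions, 412 (19.8%) lay within 200 bp of a peak of a permissive or control library. How much of the set reflects depth was not tested, and the number of reads behind each peak list is unknown.

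Most nonpermissive-only regions lay away from promoters and inside genes. Their median width was 277 bp (150 to 797) and 1268 (60.8%) overlapped a protein-coding gene, against 56.6% of all regions. Of the 2018 regions with an annotated distance (the 66 on chromosome 18 have none here), 114 (5.65%) lay within 1 kb of a TSS, against 6.82% of all regions and 41.8% of those open in all 6 libraries. The median distance to the nearest TSS was 22.1 kb, against 28.2 kb for permissive-only, 27.5 kb for control-only and 26.6 kb for all regions. Neighbouring nonpermissive-only regions were a median of 242 kb apart, and 79 (3.79%) had another within 10 kb. Chromosome 19 held 3.69% of them and 2.46% of all regions, and chromosome X held 1.34% and 2.43%.

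**Figure D2:**
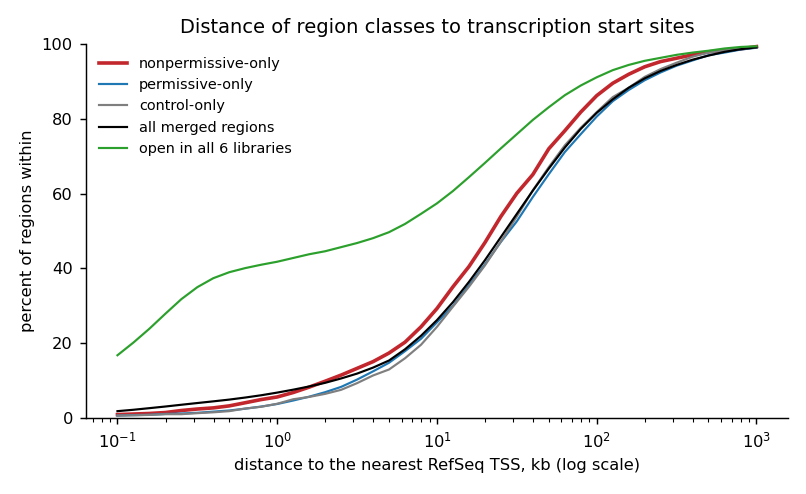
Percent of regions (y axis) within a given distance of the nearest RefSeq TSS (x axis, kb, log scale) for each class of region. The nonpermissive-only curve (red) runs close to all merged regions (black), with a median of 22.1 kb against 26.6 kb, and far below regions open in all 6 libraries (green), of which 41.8% lie within 1 kb.

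By the lower of their 2 fold enrichments, the strongest 12 regions were mostly distant from known promoters. The leading region, chr17:28022019-28022287, lay inside Anks1, an adaptor protein gene, with fold enrichments of 4.75 and 4.69. The next, chr13:32912728-32913280, lay in Serpinb1c, a member of the serine protease inhibitor family, with 4.51 and 5.02. A region far from any TSS, chr1:147850283-147850606, had 4.35 and 9.15 and was 862 kb from the nearest. Another, chr15:12293458-12294109, lay 27.7 kb upstream of Golph3, which encodes a Golgi protein, with 4.19 and 8.4. A region inside Ccdc69, chr11:55070897-55071196, lay 26.9 kb upstream of Gm2a, the activator protein of ganglioside breakdown, with 4.19 and 6.67. Of the 12, 7 had an H3K27ac peak in nonpermissive replicate 1 and 0 in nonpermissive replicate 2.

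Peak names inside both nonpermissive H3K27ac lists carry the number 2, while their labels say replicates 1 and 2. The lists are not copies, since 0.078% of replicate 2 summits recur exactly in replicate 1 and 70.3% of its peaks overlap one there. Whether they are separate samples was not tested beyond that. Of the 205 nonpermissive-only regions with a peak in replicate 2, 174 (84.9%) had one in replicate 1 too.

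H3K27ac, which the definition did not use, was present at a minority of the regions. A peak overlapped 31.7% (95% Wilson interval 29.7 to 33.7) of them in nonpermissive replicate 1 and 9.84% (8.63 to 11.2) in replicate 2. The shares were 13.1% and 6.72% in permissive replicates 1 and 2, and 10.5% and 10.6% in control replicates 1 and 2. The intervals cover counting error over regions and nothing else. Nonpermissive replicate 1 stood above all other libraries, and nonpermissive replicate 2 lay below both control libraries. No peak of any of the 6 libraries overlapped 1206 regions (57.9%), against 66.9% of all merged regions and 56.4% of control-only regions.

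The H3K27ac lists differ in how much they cover, which moves these shares. They covered 79.2 and 22.5 Mb in nonpermissive, 87.6 and 27.1 Mb in permissive and 26.9 and 24.7 Mb in control replicates 1 and 2. The lists also differ in the share of H3K27ac peaks with q above 0.05. That share was 0.00852% and 31.2% in nonpermissive, 0.0175% and 74.7% in permissive and 32.8% and 16.1% in control replicates 1 and 2. Relative to the share over all merged ATAC regions in the same library, nonpermissive-only regions held 1.69 and 1.21 times the share in nonpermissive replicates 1 and 2. That ratio was 0.656 and 0.729 in permissive and 1.09 and 1.14 in control replicates. Both nonpermissive ratios were above the other 4, and the gap between replicate 2 and the higher control was small. The same 2 libraries gave nearly the same ratios at control-only regions, 1.57 and 1.2, and higher ones at regions open in all 4 DAPT-treated libraries and no control library, 1.78 and 1.35. The nonpermissive and control ratios were not tested against each other, since an exact permutation test of 2 against 2 libraries cannot give a two-sided p below 0.333. At permissive-only regions the ratio reached 3.06 and 2.26 in the permissive libraries, and at control-only regions 1.76 and 1.31 in the control libraries. Region widths also differ, with medians of 277 bp for nonpermissive-only, 294 bp for control-only, 391 bp for permissive-only and 214 bp for all regions. The median was 509 bp for regions open in all 4 DAPT-treated libraries and no control library. Widths were not matched, and their part in the ratios and class differences was not tested.

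**Figure D3:**
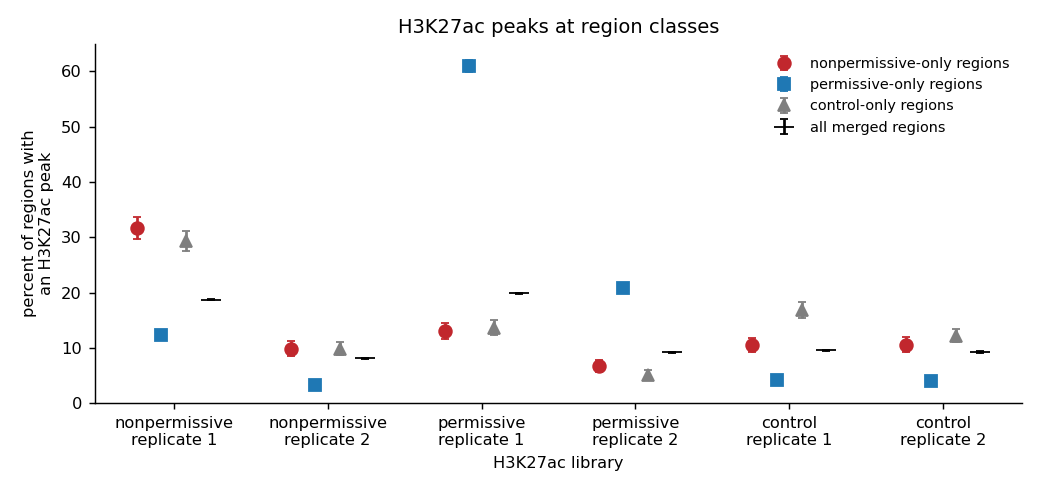
Percent of regions with an H3K27ac peak (y axis) in each of the 6 H3K27ac libraries (x axis), for nonpermissive-only, permissive-only, control-only and all merged regions; bars are 95% Wilson intervals. Nonpermissive-only regions (red) lie at 31.7% and 9.84% in the nonpermissive libraries, next to control-only regions there, while permissive-only regions (blue) stand out in the permissive libraries.

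Regions with H3K27ac in both nonpermissive libraries numbered 174 (8.35%), of which 58 (2.78% of all 2084) had it in neither control library and 36 (1.73%) in none of the other 4. Over all merged regions these 3 shares were 6.96%, 1.19% and 0.48%. Control-only regions gave 7.4%, 1.91% and 1.08%. Regions open in all 4 DAPT-treated libraries and no control library gave 8.19%, 2.85% and 0.178%. The strongest of the 58 lay inside Grm7, a metabotropic glutamate receptor gene (chr6:111448990-111449468, fold enrichments 4.03 and 5.9). Next came the Gm13580 promoter region shown above (chr2:60411147-60411510, 3.71 and 3.84). Others lay in Celf2, an RNA-binding protein gene (chr2:6827572-6827906, 3.39 and 4.01), and in Plekha4 (chr7:45530158-45530729, 3.41 and 3.29), 0.845 kb from its TSS. Both of these also had an H3K27ac peak in a permissive library.

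H3K27ac was more frequent at stronger regions in nonpermissive replicate 1 and in both control libraries. It overlapped 26.5% of the 695 weakest, 29.4% of the next 694 and 39.1% of the 695 strongest, while nonpermissive replicate 2 gave 9.06%, 10.7% and 9.78%. The shares were 12.9%, 13.8% and 12.4% in permissive replicate 1, and 7.91%, 6.63% and 5.61% in permissive replicate 2. They were 8.35%, 11.2% and 11.8% in control replicate 1, and 9.35%, 10.5% and 11.8% in control replicate 2. All 6 libraries had more H3K27ac near a TSS. Within 1 kb of a TSS, 41.2% and 24.6% of 114 regions had a peak in nonpermissive replicates 1 and 2, against 35.0% and 8.8% of the 568 regions more than 50 kb away. The shares within 1 kb were 22.8% and 17.5% in permissive and 15.8% and 20.2% in control replicates 1 and 2, against 12.9% and 5.99%, and 10.0% and 9.15%, beyond 50 kb.

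Set beside the classes most like them, nonpermissive-only regions differed in ways that depended on the library. In the permissive libraries 13.1% and 6.72% of them had H3K27ac, against 60.9% and 20.9% of permissive-only regions. In the nonpermissive libraries it was 31.7% and 9.84%, against 12.4% and 3.33%, and in the control libraries 10.5% and 10.6%, against 4.26% and 4.0%. A mean over the 6 libraries joins differences of opposite sign and does not show that the classes are alike. With that limit, the share of nonpermissive-only regions was on average 0.784 percentage points below that of control-only regions (higher in 3 of 6 libraries, exact two-sided sign-flip p = 0.719, adjusted p = 0.781 over 3 classes). Against permissive-only regions the mean difference was −3.92 points (higher in 4 of 6, exact p = 0.781, adjusted p = 0.781). Against the 562 regions open in all 4 DAPT-treated libraries and no control library it was −12.7 points (lower in 6 of 6, exact p = 0.0312, adjusted p = 0.0938). The last p is the smallest that 6 libraries can give, and adjusted over 3 classes it could pass only if another class reached it too. Its count also depends on the definition: with an overlap of at least 0.5 of the region, H3K27ac within 500 bp, stricter H3K27ac peaks or stricter regions, 2 or 3 of 6 libraries were lower (exact p = 0.438 to 0.656).

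The nearest TSS lay within 50 kb for 1450 regions, which gave 1368 gene symbols. Of these, 923 had an RNA gene identifier and 583 passed the filter on low counts at 48 h, 598 at 24 h. The RNA test was edgeR's quasi-likelihood test with Benjamini-Hochberg adjustment over all genes tested, 13411 at 48 h and 15174 at 24 h, and a gene rose or fell where adjusted p was under 0.05. Total counts ran between 2165340 and 4896371 per 48 h library and between 10666000 and 13158859 per 24 h library. Levels are given as CPM, counts scaled to library size. In sorted bulk samples, fewer cells of a type and less RNA per cell cannot be told apart.

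Few of these genes passed between nonpermissive and control cells. On simulated data this comparison recovered 2% of 100 genes with 4-fold changes, so an uncalled gene is not shown to be unchanged. Of the 583 genes, 1 rose (0.172%) and 1 fell (0.172%), and over all genes 0.0671% rose and 0.127% fell. Before adjustment 14 of the 583 genes were higher and 22 lower with p under 0.05, against 483 and 503 of all 13411 genes. The median log2 fold change of the 583 genes was −0.11, against 0.00461 over all genes.

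Scn11a, a voltage-gated sodium channel, was the gene that rose. It had 4.47, 2.85 and 5.12 CPM in nonpermissive, 381, 387 and 444 CPM in permissive and 0.187 and 0 CPM in control cells. The groups did not overlap, and permissive cells were far above both others. The control libraries held 1 count in all, so the ratio of nonpermissive to control cells was 38.7 with a 95% counting interval of 6.53 to 1570 (edgeR adjusted p = 0.0267). The call was lost without nonpermissive replicate 1 or 3 or either control library (adjusted p = 0.0777 to 0.207). The nearby region, chr9:119803546-119803861, lay inside the gene, 21.8 kb downstream of its TSS, with fold enrichments of 2.26 and 3.5 and a −log10 q of 0.864 and 2.85 in nonpermissive replicates 1 and 2. That region had an H3K27ac peak in nonpermissive replicate 1 and in both permissive libraries.

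Sdc1, a cell surface proteoglycan, fell. It had 86.6, 24.0 and 84.8 CPM in nonpermissive, 52.6, 22.8 and 52.6 CPM in permissive and 466 and 719 CPM in control cells. Control libraries were the highest, with no overlap. The log2 fold change of nonpermissive against control cells was −3.18 ± 0.57 (SE, edgeR adjusted p = 0.0393), with adjusted p of 0.0577 to 0.189 when any of the 5 libraries of that comparison was left out. At 24 h it had 11.5, 11.7 and 17.4 CPM with DAPT and 105, 96.1 and 91.2 CPM with DMSO (log2 fold change −2.85 ± 0.16, edgeR adjusted p = 7.11e-06). Its region, chr12:8781859-8782322, lay inside the gene 10.7 kb from the TSS, with fold enrichments of 3.01 and 7.87. That region had an H3K27ac peak in permissive replicate 1 alone.

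Against permissive cells, 66 of the 583 genes rose in nonpermissive cells (11.3%) and 51 fell (8.75%), where 6.35% of all genes rose and 6.78% fell. With the replicate number as a block, 83 rose (14.2%) and 59 fell (10.1%), where 8.12% and 7.93% of all genes did. The share that rose was above that over all genes and the share that fell was nearer to it. Genes near control-only regions gave 10.2% and 7.64% in the same comparison, and genes near permissive-only regions 5.41% and 14.3%. These shares describe the sets and the differences between them were not tested.

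**Figure D4:**
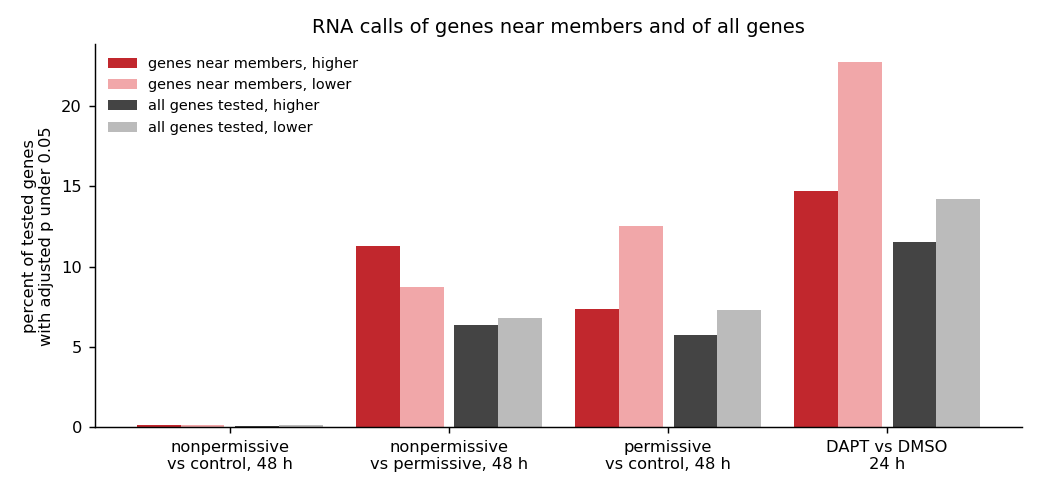
Percent of tested genes with edgeR adjusted p under 0.05 (y axis) in 4 comparisons (x axis), for genes nearest a nonpermissive-only region (red, 583 genes at 48 h and 598 at 24 h) and all genes tested (grey); dark bars rose and light bars fell. Nonpermissive against control bars are near 0, and the genes near these regions exceed all genes most clearly for the light bars of DAPT against DMSO, 22.7% against 14.2%.

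The genes that rose most clearly against permissive cells were low in permissive cells, and none of the 6 named here passed between nonpermissive and control cells (edgeR adjusted p = 0.723 to 0.955). Cybrd1, an iron-regulated ferric reductase, had 174, 200 and 136 CPM in nonpermissive, 2.27, 1.67 and 4.04 CPM in permissive and 300 and 203 CPM in control cells. Permissive libraries lay far below the rest without overlap (nonpermissive against permissive log2 fold change 6.01 ± 0.51, edgeR adjusted p = 3.28e-05). Frk, a Src-family kinase, had 52.2, 48.5 and 34.6 CPM in nonpermissive, 0.413, 0.335 and 1.21 CPM in permissive and 70.3 and 52.8 CPM in control cells. Its region lay 1.84 kb from the TSS with an H3K27ac peak in nonpermissive replicate 1 alone. Car14, a membrane carbonic anhydrase, averaged 153 ± 37.7 CPM in nonpermissive, 8.68 ± 3.03 CPM in permissive (SD, n = 3 each) and 278 ± 31.9 CPM in control cells (SD, n = 2). Pla2r1, a phospholipase A2 receptor, Unc5c, a netrin receptor, and Mamld1 also rose, by 6.08 ± 0.72, 5.94 ± 0.81 and 4.16 ± 0.60 on the log2 scale.

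Those that fell most clearly against permissive cells include genes of hair cells. Lhx3, a hair cell transcription factor, had 1.68, 1.14 and 0.96 CPM in nonpermissive, 241, 345 and 186 CPM in permissive and 0 and 1.14 CPM in control cells. Permissive libraries lay above all others (log2 fold change of nonpermissive against permissive −7.61 ± 0.72, edgeR adjusted p = 5.41e-05). Its region, chr2:26220435-26220847 in the neighbouring gene Qsox2, had fold enrichments of 2.26 and 2.43 and no H3K27ac peak. The −log10 q there was 0.864 and 0.863 in nonpermissive replicates 1 and 2. Cib2, a calcium-binding protein of the hair cell transduction complex, had 13.7, 27.4 and 41.9 CPM in nonpermissive, 362, 806 and 443 CPM in permissive and 7.48 and 11.7 CPM in control cells. Cacng5, a calcium channel and AMPA receptor subunit, Evl, an actin regulator, and Plekha6 fell too, with log2 fold changes of −7.73 ± 0.87, −3.48 ± 0.41 and −4.66 ± 0.68. A region with a peak in both nonpermissive libraries was thus found beside genes in both directions. The peaks near Lhx3 and Evl had q above 0.05 in both libraries, and those near Cib2, Cacng5 and Plekha6 had q under 0.05 in both.

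**Figure D5:**
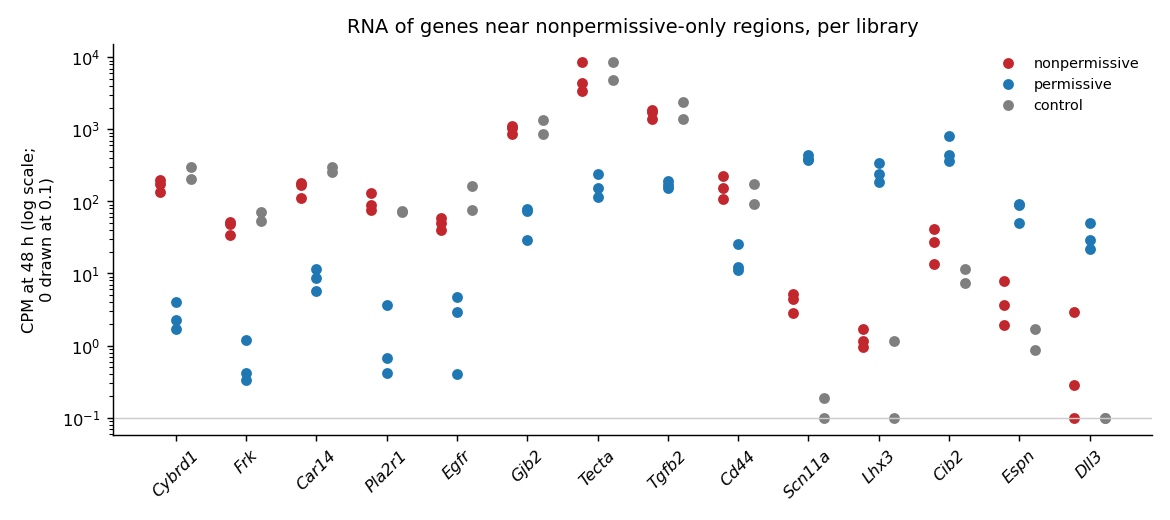
CPM at 48 h (y axis, log scale, with 0 drawn at 0.1) in each nonpermissive, permissive and control library for 14 genes near a nonpermissive-only region; each point is a library. The left 9 genes, from Cybrd1 to Cd44, lie lowest in permissive cells, and the right 5, from Scn11a to Dll3, lie highest there.

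Among genes of known roles, a region lay within 50 kb of a TSS for 11.5% of all symbols and 13.5% of those tested at 48 h. Of the Pillar and Deiters cell markers 5 of 16 had one, of FGF and receptor tyrosine kinase genes 5 of 12, of TGF-beta, BMP and activin genes 5 of 17, and of immediate early and AP-1 genes 5 of 17. Hippo and Tead genes gave 3 of 12, Wnt genes 3 of 10 and Notch pathway genes 1 of 10 (Maml2, a Notch coactivator). None of the 7 endothelial, 7 blood, 5 melanocyte, 4 neuron and 1 Schwann cell genes with a TSS here had one, and 1 of 9 mesenchyme genes did (Postn). Hair cell bundle and synapse genes gave 3 of 15 and hair cell transcription factors 2 of 9. The list of Notch ligands and related genes of the hair cell lineage gave 2 of 6 (Dll3, a ligand, and Rfng, which is not a ligand). Inner phalangeal and border cell markers gave 3 of 9, extracellular matrix and tectorial membrane genes 3 of 12, pan-supporting cell genes 2 of 12 and epithelial ridge, Hensen and Claudius cell markers 1 of 13. Lists this short were not tested and the shares are descriptions.

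Taken whole, with or without a region, the lists gave the following counts in nonpermissive against permissive cells. Of the hair cell bundle and synapse genes 0 of 19 tested rose and 17 fell, and of hair cell transcription factors 1 of 15 rose and 8 fell. Of the Pillar and Deiters cell markers 10 of 20 rose and 2 fell, of inner phalangeal and border cell markers 6 of 12 and 0, and of immediate early and AP-1 genes 9 of 20 and 0. Wnt genes gave 6 of 18 and 0, Notch pathway genes 5 of 13 and 0, Hippo and Tead genes 4 of 13 and 0, FGF and receptor tyrosine kinase genes 4 of 19 and 1, and TGF-beta, BMP and activin genes 2 of 21 and 0.

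Of the 10 genes on the supporting cell and matrix lists with a region, 8 rose against permissive cells and 2 did not pass (Matn4 and Tgfbi, log2 fold changes 0.21 and 0.23). Gjb2 and Gjb6, the gap junction proteins connexin 26 and connexin 30, share 2 regions on chromosome 14. Gjb2 had 1120, 1050 and 876 CPM in nonpermissive, 29.3, 77.7 and 74.8 CPM in permissive and 1330 and 876 CPM in control cells. Permissive libraries did not overlap the others (nonpermissive against permissive log2 fold change 4.07 ± 0.48, edgeR adjusted p = 0.000144; 3.84 ± 0.56 for Gjb6). Neither region had an H3K27ac peak. Tecta and Tectb, which encode tectorial membrane proteins, rose by 5.02 ± 0.54 and 3.25 ± 0.43 against permissive cells. Slc1a3, a glutamate transporter of inner phalangeal and border cells, Cd44 and Prss23 rose by 2.57 ± 0.42, 3.28 ± 0.50 and 2.39 ± 0.47, and Col11a2, a collagen, by 2.72 ± 0.58. Nonpermissive against control cells, edgeR adjusted p was 0.366 to 0.994 for these 8 genes. Prss23 had the lowest of these, with 155, 369 and 180 CPM in nonpermissive and 713 and 693 CPM in control cells. Its groups did not overlap (log2 fold change −1.59 ± 0.49), while Tectb and Cd44 had log2 fold changes of 0.2 and 0.27.

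Of the 22 genes on the signalling and immediate early lists with a region, 21 were tested, 7 rose against permissive cells, 0 fell and 14 did not pass. Those 14 include the growth factor receptors Erbb2 (log2 fold change 1.29, edgeR adjusted p = 0.369) and Fgfr2 (1.2, adjusted p = 0.62), and Spry1, an inhibitor of receptor tyrosine kinase signalling (1.53, adjusted p = 0.0715). They also include the AP-1 gene Fosl2 (1.31, adjusted p = 0.4), Tcf7l1 (2.71, adjusted p = 0.075) and the activin receptor Acvr1 (−0.41, adjusted p = 0.648). Egfr, a receptor tyrosine kinase, had 58.1, 40 and 49.6 CPM in nonpermissive, 2.89, 4.69 and 0.404 CPM in permissive and 166 and 75.9 CPM in control cells. Nonpermissive libraries lay between the others (against permissive log2 fold change 4.16 ± 0.65, edgeR adjusted p = 0.00101; against control −1.29 ± 0.60, adjusted p = 0.68). Tgfb2, a TGF-beta ligand, rose against permissive cells by 3.27 ± 0.40, Atf3 and Klf4, stress-induced transcription factors, by 3.26 ± 0.51 and 3.0 ± 0.60. Klf6, Lgr6, a Wnt pathway receptor, and Tcf7l2, a Wnt effector, rose by 1.74 ± 0.45, 2.94 ± 0.69 and 1.92 ± 0.56, and each lost its call without nonpermissive replicate 1 (Lgr6, edgeR adjusted p = 0.0569; Tcf7l2, 0.158) or 3 (Klf6, 0.0969; Tcf7l2, 0.0521). Klf6 and Tcf7l2 also lost it without permissive replicate 2 (0.0758 and 0.118), and Tcf7l2 without permissive replicate 3 (0.102).

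Of the 7 genes on the hair cell lists with a region, 6 fell against permissive cells and 1 did not pass (Rfng, log2 fold change −0.67). Espn, an actin-bundling protein of stereocilia, had 3.63, 7.99 and 1.92 CPM in nonpermissive, 88.5, 92.4 and 50.5 CPM in permissive and 1.68 and 0.856 CPM in control cells. Dll3, a Notch ligand, had 0.279, 0 and 2.88 CPM in nonpermissive, 50.1, 22.1 and 29.5 CPM in permissive and 0 CPM in both control libraries. Both fell against permissive cells, Espn with a log2 fold change of −4.15 ± 0.62 and Dll3 of −4.86 ± 0.96 (adjusted p = 0.000718 and 0.00507, edgeR). Nhlh1, a neuronal and hair cell transcription factor, held 1 count in nonpermissive and 265 in permissive cells, a ratio of 0.0046 (95% counting interval 0.000116 to 0.0258). Strc, the stereocilia protein stereocilin, held 3 and 160 counts, a ratio of 0.0228 (0.00466 to 0.0679), and its call was lost without nonpermissive replicate 1 or 3 (edgeR adjusted p = 0.0654 and 0.0611). The regions at Espn, Dll3, Nhlh1 and Strc had no H3K27ac peak in any library.

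Summed markers of mesenchyme, of melanocyte and stria, and of Schwann and satellite glia were lower in permissive than in nonpermissive libraries, without overlap. The sums for endothelium and pericyte, blood and macrophage, and spiral ganglion neuron overlapped between nonpermissive and permissive libraries. The summed CPM of 13 mesenchyme markers was 1420 to 3440 in nonpermissive, 233 to 745 in permissive and 660 to 3450 in control libraries, with none at 0. Of 12 tested, 3 were higher and 1 lower in nonpermissive than in permissive cells. The 8 melanocyte and stria markers summed to 206 to 366, 13.7 to 33.5 and 231 to 490 CPM in nonpermissive, permissive and control libraries, with Dct, Kcne1, Pmel and Tyr at 0 in permissive cells. Kcne1 was also at 0 in nonpermissive cells, and Dct and Tyr in control cells. The 8 Schwann and satellite glia markers summed to 539 to 776, 113 to 286 and 524 to 974 CPM, with Gfra3 at 0 in nonpermissive and control cells. The 20 pan-supporting cell markers summed to 8850 to 14000, 1550 to 1970 and 10600 to 15400 CPM, and 12 of 19 tested were higher in nonpermissive than in permissive cells. The 10 endothelium and pericyte markers summed to 115 to 280 CPM in nonpermissive, 55.3 to 152 in permissive (Tek at 0) and 22.1 to 62.5 in control libraries. The 9 blood and macrophage markers summed to 19.4 to 79.0, 60.9 to 250 and 37.6 to 53.1 CPM, and the 9 spiral ganglion neuron markers to 175 to 322, 256 to 460 and 337 to 447 CPM, in the same order. The part of these cells in the RNA values was not tested.

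The permissive against control comparison, which shares samples with both other 48 h comparisons, gave 43 of 583 genes higher (7.38%) and 73 lower (12.5%). Over all genes 5.72% were higher and 7.28% lower. At 24 h, 88 of 598 genes were higher (14.7%) and 136 lower (22.7%) with DAPT than with DMSO, against 11.5% and 14.2% of all genes. Genes near control-only regions were lower in 27.9% of 760 cases, and genes nearest any merged region in 15.0% of 10392.

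The locus with most regions held 4 within 50 kb of the starts of Ptpa, a phosphatase 2A activator, and Ier5l on chromosome 2. They ran from chr2:30451355-30451519 to chr2:30472254-30472555, with fold enrichments of 1.92 to 3.34, and only chr2:30469714-30470079 had a −log10 q above 2 in nonpermissive replicate 2. Ptpa had 81.5, 57.1 and 80.0 CPM in nonpermissive, 60.5, 70.0 and 59.4 CPM in permissive and 44.3 and 75.6 CPM in control cells. The groups overlapped, and no comparison of Ptpa passed (adjusted p 0.486 to 0.961).

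Of the genes whose promoters are shown above, Tmem229b had 114, 124 and 118 CPM in nonpermissive, 12, 24.4 and 35.2 CPM in permissive and 75.9 and 206 CPM in control cells. It rose against permissive cells (log2 fold change 2.32 ± 0.50, edgeR adjusted p = 0.00761) and its control values spanned the nonpermissive ones. Sphk1, a kinase that makes sphingosine 1-phosphate, had 32.4, 45.1 and 67.5 CPM in nonpermissive, 2.27, 10.0 and 23.9 CPM in permissive and 68.8 and 126 CPM in control cells. Its difference from permissive cells did not pass (log2 2.03 ± 0.68, edgeR adjusted p = 0.0648), but did with the replicate number as a block (adjusted p = 0.0049). Btbd19 had 19.3, 17.1 and 12.8 CPM in nonpermissive, 3.71, 3.68 and 8.49 CPM in permissive and 6.73 and 2.28 CPM in control cells. Nonpermissive libraries were the highest without overlap, yet neither difference passed (edgeR adjusted p = 0.145 against permissive and 0.64 against control). Rd3 and Gm13580 had at most 0.669 CPM in any 48 h library.

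Splitting the genes by the H3K27ac state of their region gave small groups. Near regions with H3K27ac in both nonpermissive libraries, 16 of 75 tested genes (21.3%) were higher and 4 (5.33%) lower in nonpermissive than in permissive cells. Near regions with no H3K27ac peak in any library, 37 of 318 (11.6%) were higher and 30 (9.43%) lower. In nonpermissive against control cells the numbers were 0 and 0 in both sets, with 4 and 6, and 7 and 12, at an unadjusted p under 0.05. Over all 13411 genes tested, 483 were higher and 503 lower at that unadjusted p.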

How the data were processed

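Peak lists, 1 per sample, hold the fold enrichment ratio and the −log10 p-value and q-value that the authors deposited for each ATAC or H3K27ac peak. RNA tables hold expected counts per gene as deposited by the authors. The submitters' processing notes name STAR, RSEM, DESeq2, Bowtie2, MACS2 and UMI-tools and build mm10, with neither roles nor versions given in the sources used here. Peaks were merged at 1 bp of overlap and classed by which libraries held a peak. TSS positions came from RefSeq promoter windows on GRCm38.p6, which cover 79.9% of coding genes and lack chromosome 18. Genome sequence of the other regions was not used here, so exons, repeats and GC content were not analysed.

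Expected counts were rounded, filtered with filterByExpr, scaled by TMM and tested with edgeR 4.0.16 (R 4.3.3), with all 8 libraries of 48 h in 1 fit. Gene identifiers matched a symbol in 48349 of 48709 cases (99.3%). On simulated data with 4-fold changes, the nonpermissive against permissive fit recovered 4% of 100 changed genes. The nonpermissive against control fit recovered 2% and the 24 h fit 90%. Few genes were changed in the simulation, which makes the adjusted threshold stricter than where many genes differ. Region shares between classes were compared by exact sign flips over the 6 H3K27ac libraries.

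Named regions were the 12 with the highest lower fold enrichment and up to 10 with H3K27ac in both nonpermissive and neither control library. Named genes were the nearest to these, the 6 with the smallest adjusted p per direction against control and against permissive cells, the 5 with most regions, and listed genes with a region that passed. Genes with a region at their promoter were added after their values were seen. The regions and the 20 gene lists were chosen with earlier results of these data known.

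Same-numbered nonpermissive and permissive 48 h RNA samples deviated together from their group means (r = 0.576, 0.152 and 0.127 for replicates 1, 2 and 3 over 7484 genes). The main fit did not use the replicate number, and a fit with the number as a block is given beside it for that comparison. What same-numbered samples share is not stated in the labels. Alternatives were another scaling (RLE), no filter, DESeq2 1.42.0, the replicate block, other TSS windows, stricter peaks and leaving out each library.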

Additional observations from a re-analysis of the deposited data

How the results depend on the processing

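The number of nonpermissive-only regions depends strongly on the peak threshold and on single libraries. It was 2084 as defined, 37 with a −log10 q of at least 5 in the nonpermissive libraries, 356 with that limit in all 6, and 886 and 1126 with q under 0.05 (chosen after seeing the data). Leaving out a library gave 2198 to 42690: 36000 and 42690 without nonpermissive replicate 1 and 2, 3515 without permissive replicate 2 and 4217 without control replicate 1. Merging peaks within 200 bp gave 2066. The share with H3K27ac in both nonpermissive libraries was 8.35%, and 5.95% with an overlap of at least 0.5 of the region, 12.4% within 500 bp, 1.73% for H3K27ac peaks with a −log10 q of at least 5 and 11.2% for regions with q under 0.05. The difference from control-only regions reversed to 0.798 points with those stricter H3K27ac peaks and 1.88 with q under 0.05, was −8.47 with the 37 regions of −log10 q of at least 5, and ranged from −1.41 to 0.346 when a library was left out. The difference from permissive-only regions ranged from −8.55 to 4.87, the last without permissive replicate 1, and that from regions open in all DAPT-treated and no control libraries from −15.0 to −6.4 without a library and from −10.9 to −5.7 under the other definitions of overlap, peaks or regions. The cause was not tested.

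For nonpermissive against control RNA, the percent higher and lower (0.172 and 0.172) was 0.535 and 0.803 without a filter (0.595 and 0.798 over all genes) and 0.338 and 0.338 with DESeq2 (0.548 and 0.526 over all genes). It was 0.0 and 0.0 within 10 kb and with a −log10 q of at least 5, 0.0 and 0.37 with q under 0.05, 0.0873 and 0.437 with the nearest coding gene body, and 0.292 lower within 100 kb. Leaving out a library gave 0.0 to 0.175 in each direction. Regions with a −log10 q of at least 5 left 8 genes at 48 h and 9 at 24 h, with 0.0% lower in nonpermissive against permissive, 0.0% higher in permissive against control, and 0.0% higher and 11.1% lower with DAPT. Without a library, nonpermissive against permissive gave 8.19% to 11.6% higher and 6.1% to 8.67% lower, permissive against control 2.66% (without control replicate 1) to 7.84% and 8.65% to 12.3%, and DAPT 9.9% to 17.9% and 15.3% to 24.2%.

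With the replicate block, nonpermissive against permissive gave 14.2% higher and 10.1% lower, and the block moved no count of genes near these regions by over 1.5 times. In the other comparisons the correlations of same-numbered samples were 0.336 and 0.0113 (nonpermissive and control), 0.512 and 0.198 (permissive and control) and −0.0745 to 0.00793 at 24 h. Those of permissive and control samples were near those of nonpermissive and permissive samples. Whether the numbers mark pairs was not tested. Of 396 refits of 33 named gene results, 378 kept their direction and side of the threshold, 18 lost the call and 0 changed direction. Sequence windows of 200 bp at region centres were not run. The depth behind the peak lists is unknown. Few simulated 4-fold changes were found in the 48 h RNA fits, so an uncalled gene is not shown to be unchanged. The parts of depth, of spread between samples and of the few genes changed in that simulation were not tested.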
